A study of Mus musculus with 6 samples.

Results

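The MIP, RANTES and TARC/MDC CC chemokines were followed here with the receptors Ccr1 and Ccrl2. The cells were sorted as peritoneal endothelial cells (ECs) from mice given peritoneal dialysis (PD) fluid or saline. The members were the genes whose symbol equals Ccl3, Ccl4, Ccl5, Ccl6, Ccl9, Ccl17, Ccl22, Ccr1 or Ccrl2, which are 9 of the 22183 genes in the table. RNA sequencing was performed on the sorted cells of 3 saline mice and 3 PD mice, with 1 library per mouse. All mice were wild type, and the study's methods describe C57BL/6J males aged 8 to 10 weeks that received an intraperitoneal injection every day for 6 weeks, of saline or of a high-glucose PD fluid. The labels describe cells from peritoneal tissue sorted magnetically for CD31, whereas the study's supplement describes mesenteric cells sorted by flow cytometry as CD31+ and CD45-. The libraries held between 21973426 and 26374292 counted reads, and levels are given as CPM, read counts scaled to a common library total, after TMM scaling, which sets library sizes from the bulk of the genes.

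CC chemokines are small secreted proteins that draw leukocytes along a gradient by binding G protein-coupled receptors. CCL3 and CCL4 are the macrophage inflammatory proteins 1 alpha and 1 beta, CCL5 is RANTES, and CCL3 and CCL5 bind CCR1. CCL6 and CCL9 are related chemokines of rodents that act through CCR1. CCL17 (TARC) and CCL22 (MDC) share the receptor CCR4, carried by type 2 helper and regulatory T cells. CCR1 is a signalling receptor of monocytes and neutrophils, and CCRL2 is an atypical receptor that binds chemerin without the usual signalling. ECs can hold chemokines on their surface, where rolling leukocytes meet them, and activated endothelium can express CCRL2.

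The promoters of Ccl3, Ccl6, Ccl9 and Ccrl2 are shown because these genes rose by 4-fold or more in PD mice and are among those matched in the promoter table used here. That table (RefSeq, assembly GRCm38.p6) matched 7 of the 9 members, and Ccl4 and Ccl5 were not matched. Each sequence is the 120 bases before the start site, 5′ to 3′ on the minus strand, from chr11:83649379-83649498 for Ccl3, chr11:83593088-83593207 for Ccl6, chr11:83578637-83578756 for Ccl9 and chr9:111057519-111057638 for Ccrl2. Capitals mark a match to the NF-kB consensus in Ccl9 and Ccrl2, and a 13-base run that Ccl6 and Ccl9 share.
Ccl3: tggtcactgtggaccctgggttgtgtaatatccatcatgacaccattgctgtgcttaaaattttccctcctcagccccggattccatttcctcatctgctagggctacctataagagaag
Ccl6: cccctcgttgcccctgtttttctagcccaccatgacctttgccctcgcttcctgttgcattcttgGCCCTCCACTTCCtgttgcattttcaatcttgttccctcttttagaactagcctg
Ccl9: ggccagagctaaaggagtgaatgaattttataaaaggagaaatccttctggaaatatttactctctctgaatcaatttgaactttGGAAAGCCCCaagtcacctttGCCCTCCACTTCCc
Ccrl2: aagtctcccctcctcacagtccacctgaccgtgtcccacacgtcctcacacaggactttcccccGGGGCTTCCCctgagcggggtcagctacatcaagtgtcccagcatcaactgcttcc

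The shared run GCCCTCCACTTCC begins 14 bases before the start site of Ccl9 and 55 bases before that of Ccl6. It was the longest exact match between any pair of the 7 promoters, searched on the strand of the gene. Motifs were searched on both strands in the 250 bases before each start site. The NF-kB consensus was matched in 2 of the 7 promoters, those of Ccl9 and Ccrl2, and in 3.90% of the 32851 promoters in the reference. The ETS core GGAAGT was matched in 4 of the 7, those of Ccl3, Ccl6, Ccl9 and Ccl22, and in 19.7% of all promoters. In Ccl6 and Ccl9 that match lies inside the shared run, on the other strand. TATAAA was matched in Ccl9 alone among the 7 and in 12.4% of all promoters. A match describes these letters and is not evidence of binding.

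PD mice had higher transcript levels of 8 of the 9 genes than saline mice, and no member was lower. The rise was 6- to 8-fold for Ccl3, Ccl4, Ccl6 and Ccl9 and 4-fold for Ccrl2, and less than 2-fold for Ccl5, Ccl22 and Ccr1. Ccl17 did not pass the test. All 14005 genes that passed a filter on low counts were tested in 1 edgeR quasi-likelihood fit, with p-values adjusted by the Benjamini-Hochberg method and a threshold of 0.05, and 31.1% of them were higher in PD mice and 27.8% lower. The median log2 fold change was 2.003 over the 9 members and 0.02 over all tested genes. A rise of at least 2-fold that passed the test was found for 5 of the 9 members and for 15.4% of tested genes. Every PD library lay above every saline library for all 9 members, against 34% of tested genes. In bulk RNA, more cells of a type and more RNA per cell cannot be told apart.

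**Figure D1:**
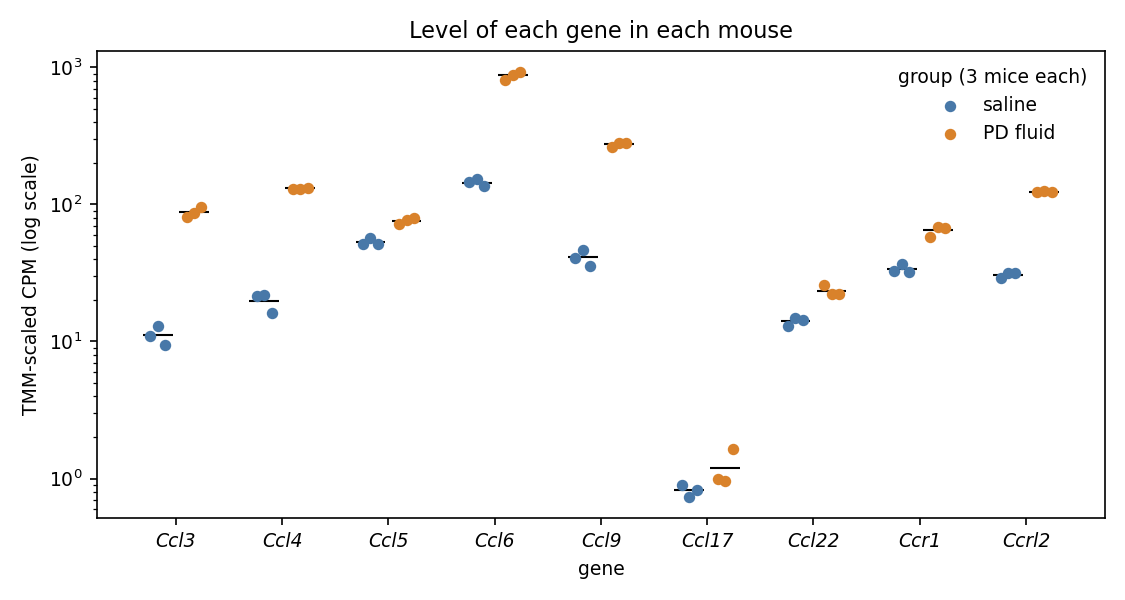
TMM-scaled CPM of each gene on a log scale, with 1 point per mouse (3 saline, 3 PD fluid) and a bar at the group mean. The PD points lie above the saline points for all 9 genes, with the narrowest gap for Ccl17.

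The cells were checked against marker lists before the chemokines were described. Endothelial markers were present in every library, with 11 of 12 higher in PD mice and summed levels of 1195 to 1211 CPM in saline mice and 1908 to 2018 CPM in PD mice. Pecam1, which encodes CD31, measured 458 to 491 CPM in saline mice and 504 to 519 CPM in PD mice (edgeR adjusted p = 0.0704). Leukocyte transcripts were also abundant. Ptprc, which encodes CD45, measured 2295 to 2520 CPM in saline mice and 1405 to 1531 CPM in PD mice. All 10 macrophage markers were higher in PD mice, and their sum went from between 2568 and 2706 CPM to between 10331 and 11204 CPM. B cell markers fell (6 of 6), from between 5351 and 5650 CPM to between 2495 and 2530 CPM. Neutrophil markers summed to 35.4 to 40.5 CPM in saline mice and 295 to 305 CPM in PD mice, with 5 of 6 tested markers higher and Ly6g too low to be tested. Mesothelial, fibroblast and mural cell markers were higher (5 of 5 in each list), as were 6 of 7 mast cell markers. Eosinophil markers were higher for 5 of 6 and lower for 1, and 4 of 5 pan-leukocyte markers were lower and 1 higher. Pancreatic acinar transcripts summed to 0.976 to 2.91 CPM in saline mice and 5491 to 6397 CPM in PD mice. The libraries therefore held transcripts of several cell types beside those of the endothelium, and the values below belong to the sorted mixture.

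**Figure D2:**
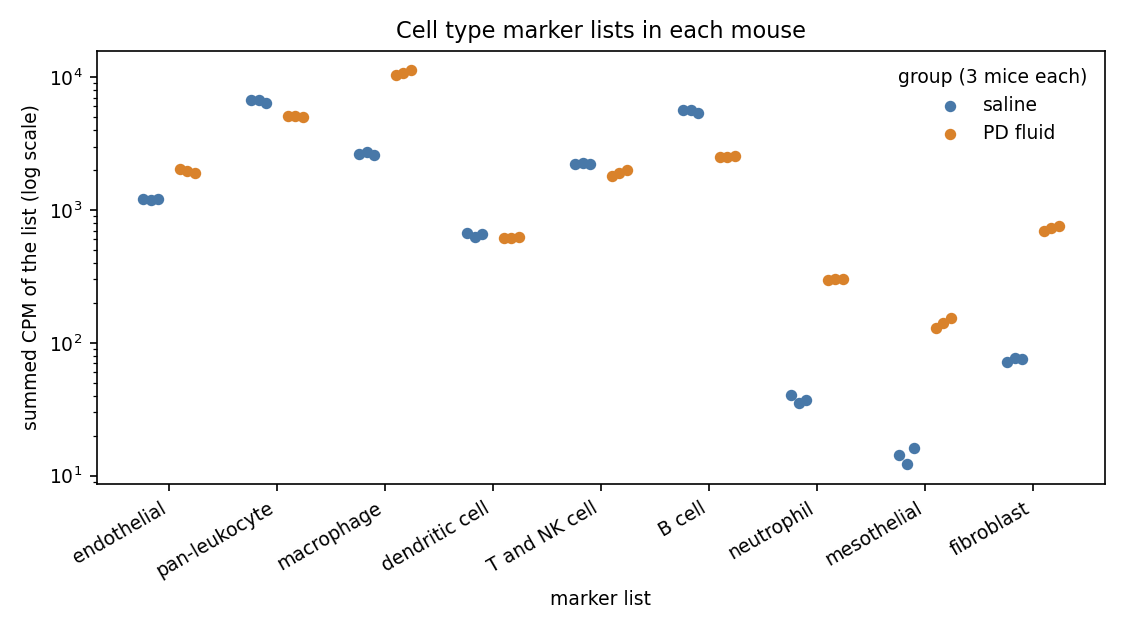
Summed CPM of 9 cell type marker lists on a log scale, with 1 point per mouse (3 saline, 3 PD fluid). Endothelial, macrophage, neutrophil, mesothelial and fibroblast lists are higher in PD mice, and pan-leukocyte, B cell and T and NK cell lists are lower. The dendritic cell list is lower by a narrow gap, and most of its sum is Ccr7.

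Ccl3 and Ccl4, which encode the macrophage inflammatory proteins 1 alpha and 1 beta, rose by similar amounts. Ccl3 (ENSMUSG00000000982, chr11:83647844-83649355 on GRCm38, minus strand) measured 11.1, 13.1 and 9.40 CPM in the saline mice and 80.4, 87.0 and 95.2 CPM in the PD mice. The means were 11.2 ± 1.83 and 87.5 ± 7.39 CPM (SD, n = 3 each), and the groups were far apart. The log2 fold change was 2.97 (SE 0.12; 95% CI 2.71 to 3.24), a 7.85-fold rise (edgeR adjusted p = 7.38e-09).

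Ccl4 (ENSMUSG00000018930, chr11:83662584-83664683, plus strand) measured 21.4, 21.9 and 16.2 CPM in the saline mice and 131, 129 and 133 CPM in the PD mice. Its means were 19.8 ± 3.14 and 131 ± 1.74 CPM (SD, n = 3 each), a log2 fold change of 2.72 (SE 0.11; 95% CI 2.49 to 2.96; edgeR adjusted p = 5.87e-09). The PD libraries were close to each other, and the lowest of them lay far above the highest saline library. Ccl3 and Ccl4 lie side by side on opposite strands. RefSeq draws a long Ccl4 model that overlaps Ccl3 and GENCODE does not, and the labels do not state strand-specific counting, so reads in such an overlap cannot be assigned to 1 of the genes.

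Ccl5, which encodes RANTES, rose much less. Ccl5 (ENSMUSG00000035042, chr11:83525778-83530518, minus strand) measured 51.5, 56.7 and 51.6 CPM in the saline mice and 71.7, 76.4 and 79.6 CPM in the PD mice. The groups did not overlap, and their means were 53.3 ± 2.99 and 75.9 ± 3.97 CPM (SD, n = 3 each). The log2 fold change was 0.51 (SE 0.08; 95% CI 0.34 to 0.68), a 1.42-fold rise (edgeR adjusted p = 0.000206). Ccl5 is made by T and NK cells among others. T and NK cell markers summed to 2208 to 2265 CPM in saline mice and 1797 to 1996 CPM in PD mice, with 2 of 10 higher and 3 lower, and Cd3e (91.8 and 96.0 CPM) and Nkg7 (298 and 312 CPM) did not pass the test. Their part in the Ccl5 result was not tested.

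Ccl6 and Ccl9, the rodent ligands of CCR1, rose together with Ccl3 and Ccl4. Ccl6 (ENSMUSG00000018927, chr11:83587882-83593087, minus strand) measured 145, 152 and 136 CPM in the saline mice and 815, 884 and 925 CPM in the PD mice. The groups were far apart. Its means were 144 ± 8.06 and 875 ± 55.5 CPM (SD, n = 3 each), with a log2 fold change of 2.60 (SE 0.07; 95% CI 2.44 to 2.76; edgeR adjusted p = 3.58e-10).

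Ccl9 (ENSMUSG00000019122, chr11:83572919-83578636, minus strand) measured 40.7, 46.6 and 35.7 CPM in the saline mice and 261, 282 and 279 CPM in the PD mice. Here too every PD library was well above every saline library. The means were 41.0 ± 5.43 and 274 ± 11.4 CPM (SD, n = 3 each), a log2 fold change of 2.74 (SE 0.09; 95% CI 2.53 to 2.95; edgeR adjusted p = 2.02e-09). The intervals of Ccl3, Ccl4, Ccl6 and Ccl9 overlap each other, and that of Ccl5 lies below all of them. Macrophages are a source of these chemokines, and the summed macrophage markers were 4.08-fold higher in PD mice, with Adgre1 (F4/80) at 85.5 and 353 CPM, Csf1r at 193 and 658 CPM and Cd68 at 97.3 and 292 CPM in saline and PD mice. Sums of the other leukocyte lists in PD mice ranged from 0.454-fold (B cell) to 7.95-fold (neutrophil) of the saline sums. The part of the macrophage or neutrophil transcripts in the chemokine changes was not tested by a separation of cell types. Values after scaling to the macrophage markers are given below.

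Of the CCR4 ligands, Ccl22 rose and Ccl17 did not pass the test. Ccl22 (ENSMUSG00000031779, chr8:94745590-94751699, plus strand) measured 12.9, 14.8 and 14.3 CPM in the saline mice and 25.6, 22.1 and 22.2 CPM in the PD mice. The groups did not overlap, and the means were 14.03 ± 0.995 and 23.3 ± 2.02 CPM (SD, n = 3 each). The log2 fold change was 0.73 (SE 0.11; 95% CI 0.49 to 0.98; edgeR adjusted p = 0.000231).

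Ccl17 (ENSMUSG00000031780, chr8:94810453-94812036, plus strand) was counted at 23, 16 and 20 reads in the saline mice and 27, 23 and 36 reads in the PD mice, or 0.898, 0.738 and 0.828 CPM against 0.993, 0.964 and 1.63 CPM. The lowest PD library was just above the highest saline library, and the third PD library stood above the other two. The log2 fold change was 0.53 (SE 0.36; 95% CI -0.26 to 1.31; edgeR adjusted p = 0.223), and 0.25 without PD replicate 3. At this depth neither a small fall nor a rise of up to 2.49-fold can be told from no change. Dendritic cells make both chemokines, and the summed dendritic cell markers were 629 to 676 CPM in saline mice and 611 to 624 CPM in PD mice. Most of that sum was Ccr7, at 512 to 541 CPM in saline mice and 417 to 425 CPM in PD mice, and the other 7 markers summed to 117 to 135 CPM and 187 to 207 CPM, a 1.52-fold rise of the sum. Of 8 dendritic cell markers, 5 rose and 1 fell, with Flt3 at 24.0 and 30.9 CPM and Zbtb46 at 25.3 and 39.9 CPM in saline and PD mice. Their part in the Ccl22 change was not tested.

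Both receptors rose. Ccr1 (ENSMUSG00000025804, chr9:123962124-123968692, minus strand) measured 32.5, 36.7 and 31.9 CPM in the saline mice and 58.0, 68.6 and 67.5 CPM in the PD mice. Its means of 33.7 ± 2.60 and 64.7 ± 5.81 CPM (SD, n = 3 each) gave a log2 fold change of 0.94 (SE 0.09; 95% CI 0.74 to 1.15; edgeR adjusted p = 9.73e-06). The groups did not overlap, and the rise of this receptor was 1.92-fold while its ligands Ccl3, Ccl6 and Ccl9 rose by 7.85-, 6.06- and 6.68-fold, with intervals above that of the receptor. Ccl5, also a CCR1 ligand, rose by 1.42-fold, with an interval below that of the receptor.

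Ccrl2 (ENSMUSG00000043953, chr9:111054486-111057519, minus strand) measured 29.2, 31.4 and 31.7 CPM in the saline mice and 123, 125 and 123 CPM in the PD mice. The means were 30.8 ± 1.37 and 123.3 ± 1.089 CPM (SD, n = 3 each), and every PD library was far above the saline libraries. The log2 fold change was 2.003 (SE 0.07; 95% CI 1.85 to 2.16; edgeR adjusted p = 2.45e-09). Monocytes, macrophages and neutrophils express both receptors, and all 10 macrophage markers and 5 of 6 tested neutrophil markers were higher in PD mice. Their part in the receptor changes was not tested by a separation of cell types.

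**Figure D3:**
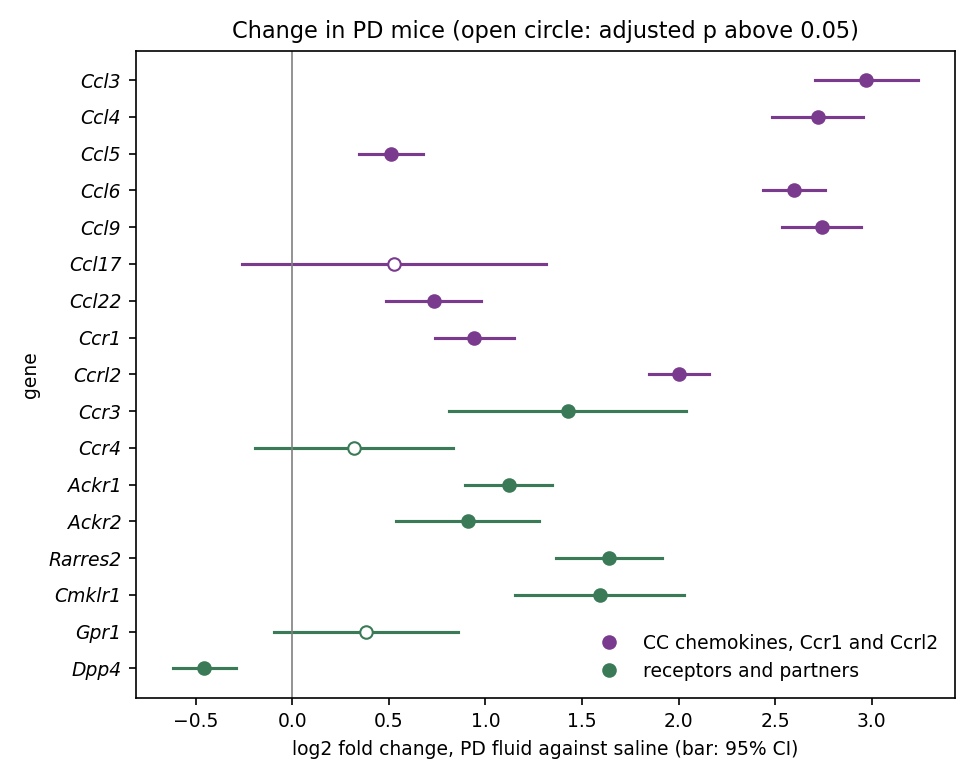
Log2 fold change of PD against saline mice with its 95% confidence interval for the 9 genes (purple) and for the receptors and partners of their pathway (green). Filled circles passed the test. Ccl3, Ccl4, Ccl6 and Ccl9 lie between 2.60 and 2.97, and Ccl17, Ccr4 and Gpr1 have intervals that include 0.

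The genes that pair with these chemokines were examined next. Of 8 such receptors, scavengers and partners, 5 were higher in PD mice, 1 was lower and 2 did not pass the test. Over all tested genes, 31.1% were higher and 27.8% lower. Ccr3, an eotaxin receptor that also binds CCL5, rose from 1.58 to 4.27 CPM (log2 fold change 1.43; edgeR adjusted p = 0.00124). Ccr4, the receptor of CCL17 and CCL22, had means of 2.55 and 3.18 CPM with overlapping groups (log2 fold change 0.32; edgeR adjusted p = 0.255).

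The atypical receptors that bind chemokines without recruiting cells also rose. Ackr1, a marker of venular endothelium that carries chemokines across ECs, measured 27.5, 32.4 and 26.9 CPM in the saline mice and 56.1, 63.5 and 68.8 CPM in the PD mice (log2 fold change 1.12; edgeR adjusted p = 5.64e-06). Ackr2, a scavenger of inflammatory CC chemokines, rose from 5.52 to 10.3 CPM (log2 fold change 0.91; edgeR adjusted p = 0.000915). Rarres2, which encodes the CCRL2 ligand chemerin, rose from 10.2 ± 1.43 to 31.8 ± 2.38 CPM (SD, n = 3 each; log2 fold change 1.64; edgeR adjusted p = 1.17e-06). Of the chemerin receptors, Cmklr1 rose from 1.95 to 5.90 CPM (log2 fold change 1.59; edgeR adjusted p = 5.71e-05). Gpr1 had means of 2.96 and 3.84 CPM (log2 fold change 0.38; edgeR adjusted p = 0.151). Chemerin and its receptors Ccrl2 and Cmklr1 were thus higher in PD mice under TMM scaling, while Gpr1 did not pass the test. With libraries scaled to macrophage markers, 0 pairing partners were called higher and 5 lower, against 2.56% and 88.1% of all tested genes. Ccrl2 (log2 fold change 0.13) did not pass the test under that scaling. Dpp4, a protease that trims several CC chemokines, fell from 199 ± 18.5 to 145 ± 3.46 CPM (SD, n = 3 each; log2 fold change -0.46; edgeR adjusted p = 0.000362).

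Of 25 genes that carry the signal of chemokine receptors, 8 were higher, 8 lower and 9 not called, with a median log2 fold change of -0.00. These counts are near the shares over all tested genes, 31.1% higher and 27.8% lower. The largest rises were in Plcb3 (log2 fold change 1.33) and Pik3r5 (1.16), a phospholipase and a kinase subunit that act below G proteins. The largest falls were in Dock2 (-0.61), a Rac activator of leukocytes that went from 869 to 571 CPM, and Plcb2 (-0.54). In a list of genes of IL-4-responsive myeloid cells, in which CCL17 and CCL22 are also made, 8 of 10 were higher and 1 was lower. Chil3, a secreted chitinase-like protein, rose from 2.36 to 41.2 CPM (log2 fold change 4.12), Mrc1, the mannose receptor, had a log2 fold change of 2.18, and the transcription factor Irf4 fell (-0.70). Of the other CC chemokines, 6 of the 11 tested rose and 0 fell, and of the other CC receptors 4 of the 6 tested rose and 2 fell, Ccr6 and Ccr7.

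Compared per transcript length, in the FPKM values deposited by the authors, the order of the 9 genes changed. In saline mice Ccl6 (99.9 ± 4.75) and Ccl5 (99.7 ± 4.76) were at the top with overlapping values (FPKM, SD, n = 3). Ccl4 followed at 29.9 ± 4.56 FPKM. Ccrl2 (16.6 ± 0.872), Ccl3 (14.5 ± 2.25), Ccl9 (13.6 ± 1.69) and Ccr1 (11.8 ± 0.811) came next, and neighbours among these 4 overlapped. Ccl22 (6.31 ± 0.424) and Ccl17 (1.59 ± 0.165) were lowest and apart from their neighbours. In PD mice no neighbours overlapped. The order was then Ccl6 (609 ± 22.7), Ccl4 (199 ± 4.50), Ccl5 (143 ± 3.70), Ccl3 (114 ± 6.60) and Ccl9 (91.3 ± 2.31 FPKM, SD, n = 3). It ended with Ccrl2 (66.0 ± 1.97), Ccr1 (22.9 ± 1.62), Ccl22 (10.6 ± 1.18) and Ccl17 (2.32 ± 0.673 FPKM). Ccl5 went from a level near that of Ccl6 to below that of Ccl4.

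**Figure D4:**
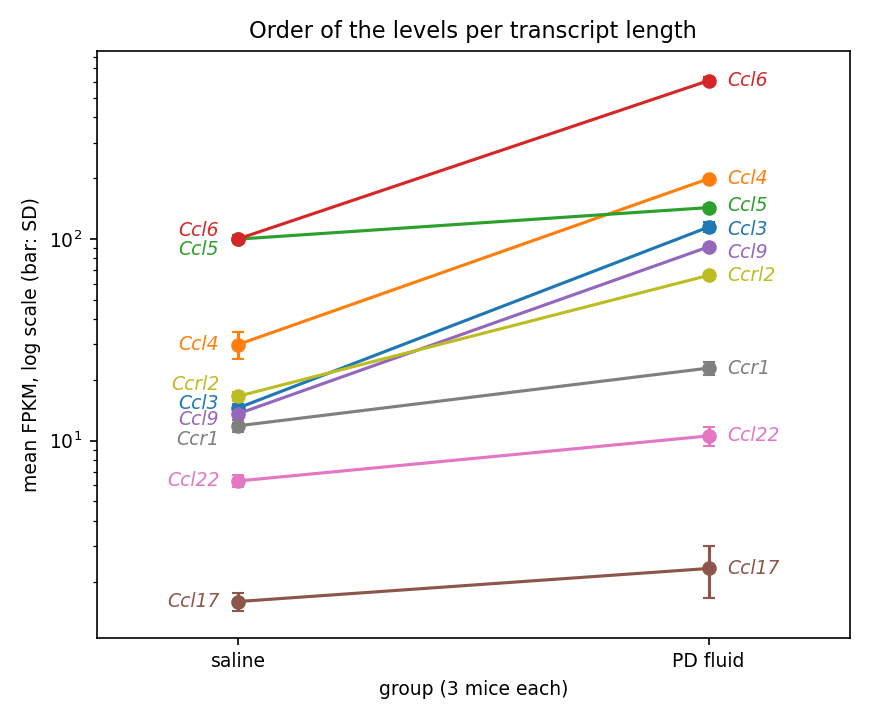
Mean FPKM of each gene (log scale, bar: SD, n = 3) in saline and PD mice, joined by a line for each gene. Ccl5 and Ccl6 start together at 99.7 and 99.9 FPKM and end at 143 and 609 FPKM, and the lines of Ccl4 and Ccl5 cross.

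The 7 ligands summed to 266 ± 16.7 FPKM in saline mice and 1169 ± 28.9 FPKM in PD mice (SD, n = 3 each). Ccl5 made up 37.6% ± 1.3 of that sum in saline mice and 12.2% ± 0.0186 in PD mice. The share of Ccl6 went from 37.6% ± 0.611 to 52.1% ± 0.676, and that of Ccl4 from 11.2% to 17.01%. The shares of Ccl3 (5.44% and 9.78%) and Ccl9 (5.10% and 7.81%) were also larger in PD mice. Ccl22 went from 2.38% to 0.904% and Ccl17 from 0.603% to 0.198%. The ligand mixture was thus split almost evenly between Ccl5 and Ccl6 at its top in saline mice and led by Ccl6 alone in PD mice. These shares do not depend on the scaling of a library, since all ligands of a library are scaled alike.

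The direction of the smaller changes depended on what the libraries were scaled to, since the marker lists themselves moved. Scaled to the 12 endothelial markers, which shifted the median log2 fold change of all genes by -0.95, Ccl3 (2.02), Ccl4 (1.77), Ccl6 (1.65), Ccl9 (1.79) and Ccrl2 (1.05) stayed higher in PD mice. Under that scaling 8.55% of tested genes were higher and 71.5% lower, so 5 of 9 members were called higher and 1 lower. The log2 fold change of Ccl5 was then -0.44 (edgeR adjusted p = 0.000977), and Ccl22 (-0.22), Ccr1 (-0.01) and Ccl17 (-0.41) did not pass the test. Scaled to the 10 macrophage markers, which shifted the median by -1.87, 4 members were higher and 4 lower, against 2.56% and 88.1% of tested genes. Ccl3 (1.10), Ccl4 (0.85), Ccl6 (0.72) and Ccl9 (0.87) remained higher, Ccrl2 (0.13) did not pass the test, and Ccl5 (-1.36), Ccl17 (-1.34), Ccl22 (-1.14) and Ccr1 (-0.93) were lower. Scaled to the 5 pan-leukocyte markers, which shifted the median by 0.37, all 9 members were higher and 0 lower, against 54.5% and 5.61% of tested genes, with Ccl17 at 0.90 (edgeR adjusted p = 0.0498). Ccl3, Ccl4, Ccl6 and Ccl9 were the members that were called higher under all 4 scalings, and their log2 fold changes relative to macrophage markers were 0.72 to 1.10. Scaling to neutrophil markers, whose sum was 7.95-fold higher in PD mice, was not tested.

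**Figure D5:**
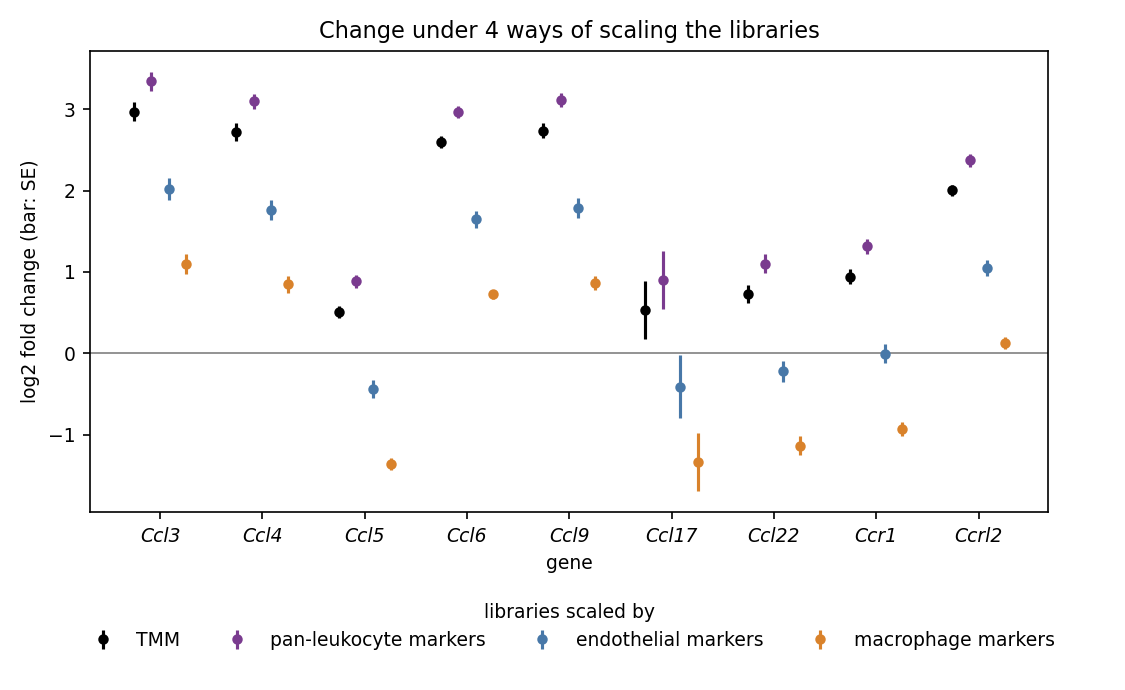
Log2 fold change (bar: SE) of each gene with libraries scaled by TMM, by pan-leukocyte, by endothelial and by macrophage markers. Ccl3, Ccl4, Ccl6 and Ccl9 lie above 0 under all 4, and Ccrl2 is close to 0 (0.13) under macrophage markers. Ccl5, Ccl17, Ccl22 and Ccr1 fall below 0 under macrophage markers. Under endothelial markers Ccl5 is below 0 (-0.44), Ccr1 is at 0 (-0.009), and Ccl22 (-0.22) and Ccl17 (-0.41) did not pass the test.

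The genes were also placed among their neighbours on the chromosome, on GRCm38. The stretch of chromosome 11 from Ccl5 to Ccl4, 138906 bases long, held 5 genes of the table, which are the 5 MIP and RANTES chemokines. All 5 were higher, against 31.1% of tested genes, which repeats the member calls given above. No other gene of the table lay in that stretch. On chromosome 8, the stretch from Ccl22 to Ccl17 (66447 bases) also holds Cx3cl1, the endothelial chemokine fractalkine, which rose from 12.0 to 31.8 CPM (log2 fold change 1.40; edgeR adjusted p = 5.41e-05). Of the 3 genes in that stretch, 2 were higher, and Ccl17 did not pass the test.

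For each member, the genes with the most similar profile over the 6 libraries were found among 13996 other tested genes, by the Euclidean distance between values of log2(CPM + 1) centred on their mean. With close replicates in each group, this distance mostly follows the size of the difference between the groups. A match is therefore not evidence of shared regulation. Ccl3 was nearest to Il1a (distance 0.142), which encodes interleukin 1 alpha, followed by Mt2 and Igkv7-33. Ccl4 was nearest to Il6 (0.177), then C5ar1 and Ccl21a, a gene with near-identical copies that can share reads. Ccl9 was nearest to C5ar1 (0.166), the receptor of complement C5a, then Mt2 and Ccl21a. Ccl6 was nearest to Ccl21a (0.0688), then Serping1 and Reg3d. Ccrl2 was nearest to Alox5 (0.108), the 5-lipoxygenase of leukocytes, then P2ry6 and F13a1. Ccl5 was nearest to Abcg2 (0.0405), then Mfsd11 and Rcn3. Ccl22 was nearest to Gmpr (0.131), then Ambp and Adam33, and Ccr1 to Esyt3 (0.0598), then Gstm1 and Crem. Ccl17 was nearest to Marcks (0.0889), then Gstk1 and Tbc1d19. The addition of 1 CPM draws in genes at very low levels whose fitted change was larger than the member's, such as Reg3d (mean CPM of 0 for saline and 5.35 for PD fluid), Ambp (0.0154 and 0.644 CPM), Igkv7-33 (0.600 and 9.81 CPM) and Esyt3 (0.255 and 1.38 CPM). Mt2 was also low in saline mice (1.57 CPM), with a log2 fold change of 3.47 against 2.97 for Ccl3 and 2.74 for Ccl9. Il6 (2.81 CPM in saline mice) had 3.01 against 2.72 for Ccl4. Ccl17 is itself low (0.821 and 1.20 CPM), so its profile is flattened. Its matches Marcks (0.25), Gstk1 (0.25) and Tbc1d19 (0.35) had smaller log2 fold changes than its 0.53.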

How the data were processed

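Cells sorted as peritoneal ECs from 3 saline and 3 PD mice were sequenced after poly(A) selection (NEBNext Ultra, Illumina NovaSeq). The authors deposited 1 table of 22183 genes with a read count and an FPKM value per gene and mouse. The submitters' processing notes name fastp 0.18.0, Bowtie2 2.2.8, HISAT2, StringTie 1.3.1 and RSEM, with no role. The genome build and annotation are not given in the sources used here, so positions come from GENCODE M21 on GRCm38 by gene ID (99.8% of IDs matched). The deposited group means, log2 ratios, p-values and FDR of the authors' own comparison were not used. No column of sample values was left unmatched (0).

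Counts were tested in R 4.3.3 with edgeR 4.0.16 (filterByExpr, TMM, glmQLFit, glmQLFTest, no covariate), with Benjamini-Hochberg adjustment over 14005 genes. The study's methods name limma, which was run as an alternative (voom, limma 3.58.1), as was DESeq2 1.42.0. The other alternatives were RLE size factors, scaling to total counts, no low-count filter, a 2-fold minimum, a replicate block, each library left out, and scaling to 3 marker lists. FPKM was used only for the order of levels and for shares. The scripts were tested on simulated data. Replicates of a group differed by more than sampling noise (chi-square per degree of freedom 6.27 to 17.0), so none was counted as a duplicate. Samples were grouped by the treatment label. p-values measure the spread between these 3 mice per group.

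The genes named are all 9 members, all pairing partners that were tested (except 1 gene not reported here), up to 2 of the largest changes past the threshold in each direction of the signalling and alternative activation lists (the latter had 1 fall), the marker genes that a result turns on, and the 3 nearest profiles of each member. Cx3cl1, Ccr6 and Ccr7 were named after their values were seen. The members and lists were chosen with earlier results of these data known.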

Additional observations from a re-analysis of the deposited data

How the results depend on the processing

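The members gave 8 higher and 0 lower calls in the fits by DESeq2 and limma-voom, with RLE size factors or total counts, without the low-count filter, with the replicate block, and with any 1 library left out (8 to 8 and 0 to 0). Of the alternative values of single members, 125 kept direction and call, 8 changed sign, 1 lost its call (Ccrl2, 0.13 under macrophage scaling) and 1 gained one (Ccl17, 0.90 under pan-leukocyte scaling).

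The scaling changed calls most. The log2 fold changes that changed sign were those of Ccl5 (-0.44 endothelial, -1.36 macrophage), Ccl17 (-0.41, -1.34), Ccl22 (-0.22, -1.14) and Ccr1 (-0.009, -0.93). Higher and lower calls under endothelial scaling were 5 and 1 for members, 1197 and 10016 for all genes, 2 and 3 for pairing partners, 1 and 20 for receptor signalling, 6 and 8 for other CC genes, and 5 and 4 for alternative activation. Under macrophage scaling they were 4 and 4, 358 and 12344, 0 and 5, 0 and 25, 4 and 12, and 3 and 7, in that order. Pan-leukocyte scaling gave 7627 and 785 for all genes, 16 and 1 for receptor signalling, and 0 and 1 lower calls for pairing partners and other CC genes. A 2-fold minimum left 5 members, and 2158 and 252 of all genes, 0 lower pairing partners, 2 and 0 in receptor signalling, 6 and 1 of other CC genes, and 5 and 0 in alternative activation. The shift of all genes follows from the construction of each scaling, and no other cause was tested.

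With 1 library left out, calls ranged from 3852 to 4333 higher and 3121 to 3685 lower for all genes, 5 to 5 and 1 to 1 for pairing partners, 8 to 8 and 7 to 9 for receptor signalling, 9 to 10 and 2 to 2 for other CC genes, and 7 to 8 and 1 to 2 for alternative activation, with 2 lower calls without saline replicate 3.

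Correlations of deviations were -0.16 to 0.09 between same-numbered libraries and -0.25 to 0.21 between the others. With such a spread this check cannot show whether a number marks a shared batch, and the labels do not say what it marks. With the replicate block, 4242 genes were higher and 3667 lower, against 4359 and 3887 without it. Depth limits Ccl17 most, at 16 to 36 reads per library.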
